A study of Mus musculus with 21 samples.

Results

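The nuclear genes of oxidative phosphorylation encode the subunits that the nucleus contributes to the respiratory chain and the ATP synthase. In the deposited counts they were taken by symbol as every gene whose name begins with Nduf, Uqcr, Atp5, Cox4i, Cox5, Cox6, Cox7 or Cox8, together with Sdha, Sdhb, Sdhc, Sdhd and Cycs. This gave 93 genes of the 23412 in the files, which are called OXPHOS genes here. By complex they were 38 complex I subunits, 7 complex I assembly factors (Ndufaf), 4 complex II subunits, 8 complex III subunits, cytochrome c (Cycs), 18 complex IV subunits and 17 genes of the ATP synthase. A symbol prefix also takes in a few relatives that are no subunit, such as Atp5s and Atp5sl.

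The RNA came from v6.5 mouse embryonic stem cells (mESCs), a male line grown on gelatin. Each of 7 conditions had 3 libraries, and RNA was collected 48 h after transfection of 50 nM siRNA. Wild-type (WT) cells received siGLO, a control siRNA, or siPds5b. Pds5b-KO cells received siGLO. Pds5a-KO cells received siGLO, siPds5b, siStag1 or siStag2. PDS5A and PDS5B are alternative regulatory subunits of cohesin, the ring complex that folds chromosomes into loops, and STAG1 and STAG2 are another alternative pair. Each knockout was represented by a single CRISPR clone, so a difference of the clone and a difference due to the deleted gene cannot be told apart. The study calls such libraries biological replicates, but the labels do not say whether they came from separate cultures, and p-values measure the spread between these libraries, not between clones.

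Complex I takes electrons from NADH and complex II takes them from succinate. Complex III passes them to cytochrome c, and complex IV hands them to oxygen. The proton gradient made by complexes I, III and IV drives the ATP synthase. Pluripotent cells draw much of their ATP from glycolysis, and the use of respiration changes when they leave the naive state. The subunits that mitochondrial DNA encodes are not analysed here.

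Total counts per library lay between 17311090 and 23989198, with a median of 19628146. Pds5b counts fell to 12.4% of the WT siGLO mean in Pds5b-KO cells and to 35% after siPds5b in WT cells, and to 38.2% of the Pds5a-KO siGLO mean after siPds5b in Pds5a-KO cells. Stag1 and Stag2 fell to 23.7% and 26.9% of that mean after their own siRNAs. Pds5a transcripts stayed at 84.4% of WT in Pds5a-KO cells, where both alleles carry small edits around 1 exon, so the count does not check that label. The summed normalized counts of 8 pluripotency markers ran from 106400 to 109100 in WT siGLO and from 104200 to 114800 in WT siPds5b. They were lower in Pds5b-KO cells (71650 to 83670). In Pds5a-KO cells they were lower with siGLO (83830 to 90230), siStag1 (75020 to 76360), siPds5b (60520 to 63730) and siStag2 (54750 to 63680). Their part in the OXPHOS results was not tested, and in bulk RNA fewer cells of a type and less RNA per cell cannot be told apart.

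In WT siGLO cells the OXPHOS genes together took 1.22%, 1.3% and 1.24% of all counts in the 3 libraries. Counts were scaled to a common library size (normalized counts), and divided by the length of the gene's principal transcript in kilobases where genes are compared with each other. On that scale of level, and over the genes that passed the low-count filter described further on, the median was 3988 per kb for the ATP synthase (17 genes), 3402 for complex IV (15 genes), 2913 for complex III (8 genes), 2129 for complex II (4 genes), 1388 for complex I subunits (37 genes), 879 for Cycs and 428 for the complex I assembly factors (7 genes). Atp5b, the catalytic beta subunit of the ATP synthase, had the highest level of all at 19440 ± 454 per kb (SD, n = 3), followed by Atp5a1, the alpha subunit, at 11300 ± 18. The highest levels of the other complexes were those of Cox4i1 (10000 ± 480), Ndufa7 (6181 ± 234), Uqcr10 (4945 ± 332), Sdhd (2909 ± 110) and Ndufaf2 (579 ± 50.7). The lowest levels among these genes were those of Cox7b2 (5.77 ± 7.51), Ndufb2 (155 ± 15.9), Uqcrq (1872 ± 87.5), Sdhc (616 ± 36.3), Ndufaf3 (212 ± 21.3) and Atp5s (155 ± 4.37). Ndufb2 and Uqcrq were divided by annotated lengths of 4371 and 1521 nt, which set their places.

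Several complex IV subunits exist in a common form and in a form restricted to muscle, lung or testis, and in WT siGLO cells the common form led in each set. Cox4i1 stood at 10000 per kb against 63.6 for Cox4i2, Cox6a1 at 6403 against 9.88 for Cox6a2, Cox7a2 at 3402 against 332 for Cox7a1, Cox7b at 2946 against 5.77 for Cox7b2, and Cox8a at 6671 against 3.68 for Cox8b and 11.4 for Cox8c. The gap was smallest for Cox6b1 (4189) and its testis form Cox6b2 (1102). Cox7a2l, a factor of respiratory supercomplexes, stood at 2335 per kb. Ndufa4, now placed with complex IV, stood at 4072 against 266 for its relative Ndufa4l2. By their symbols both are counted among the complex I subunits throughout this report.

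A filter on low counts kept 14963 genes and 89 of the 93 OXPHOS genes. Cox6a2, Cox8b and Cox8c had at most 16, 4 and 9 raw counts in any library and were left out. Ndufs5, a complex I subunit, is listed at 0 in all 21 libraries and was not read as absent from the cells. Genes were called at an adjusted p under 0.01 in edgeR's quasi-likelihood test (Benjamini-Hochberg over all genes tested), and fold changes are on the log2 scale with their standard error (SE). Exons of 32 OXPHOS genes overlap those of another annotated gene, and the use of strand in counting is not given in the sources used here, so reads of such a pair may be mixed. Many OXPHOS genes also have processed pseudogenes that could take up some of their reads.

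NRF1, a transcription factor, is a textbook regulator of respiratory chain genes, and the letters of its site were looked for in the promoters. RefSeq promoter sequences of 250 bases before to 50 after the gene start (GRCm38.p6) were matched for 77 of the 93 genes. The NRF1 core CGCATGCG, which reads the same on both strands, was in 12 of the 77 (15.6%), in 4.1% of 10917 tested genes with a promoter and in 2.07% of all 27025 genes. The YY1 core AAGATGGC on either strand was in 11 (14.3%, against 4.77% of tested genes), the ETS core CCGGAAGT in 5 (6.49%, against 8.18%) and the ERR core CAAGGTCA in 4 (5.19%, against 1.34%). No core is contained in another. Both sequences printed here belong to genes described among the results, Cycs and the complex I assembly factor Ndufaf4. They show the 120 bases before the gene start, with the NRF1 letters in capitals.
Cycs: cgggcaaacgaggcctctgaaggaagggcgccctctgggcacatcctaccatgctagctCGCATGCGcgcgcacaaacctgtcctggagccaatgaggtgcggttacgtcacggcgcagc
Ndufaf4: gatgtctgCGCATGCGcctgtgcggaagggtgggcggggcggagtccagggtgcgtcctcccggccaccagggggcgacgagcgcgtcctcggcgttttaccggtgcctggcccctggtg
The Cycs stretch is chr6:50566570-50566689 on the minus strand and lies across an exon of the noncoding gene 5430402O13Rik. Its NRF1 letters run from base -61 to -54 relative to the gene start. The Ndufaf4 stretch is chr4:24897963-24898082 on the plus strand, with no annotated exon in it and the letters at -112 to -105. A match of letters is a description of the promoter and does not show that NRF1 binds there in these cells.

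The question of the first comparisons was what loss of each PDS5 protein does to expression. In WT cells treated with siPds5b, 0 of 89 OXPHOS genes were called, where 0.00668% of all tested genes were, and DESeq2 called 0 as well. Their median log2 fold change was 0.07, and 4 of them (4.49%) had an unadjusted p under 0.05, against 4.22% of all tested genes. In Pds5a-KO siGLO cells 0 OXPHOS genes rose and 2 fell, against 9.63% and 8.12% of all tested genes called higher and lower. Their median change was 0.01. In Pds5b-KO cells 0 rose and 26 fell, against a background of 9.64% higher and 8.57% lower, and the median change was -0.27, with 84 of 89 values below 0. The median over all tested genes was within 0.01 of 0 in each of these comparisons.

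The 26 genes that fell in Pds5b-KO cells came from every complex. They were 13 of 37 complex I subunits (median of the group -0.32), 2 of 7 assembly factors (-0.14), 2 of 4 complex II subunits (-0.27), 1 of 8 complex III subunits (-0.25), Cycs (-0.52), 2 of 15 complex IV subunits (-0.27) and 5 of 17 ATP synthase genes (-0.25).

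**Figure D1:**
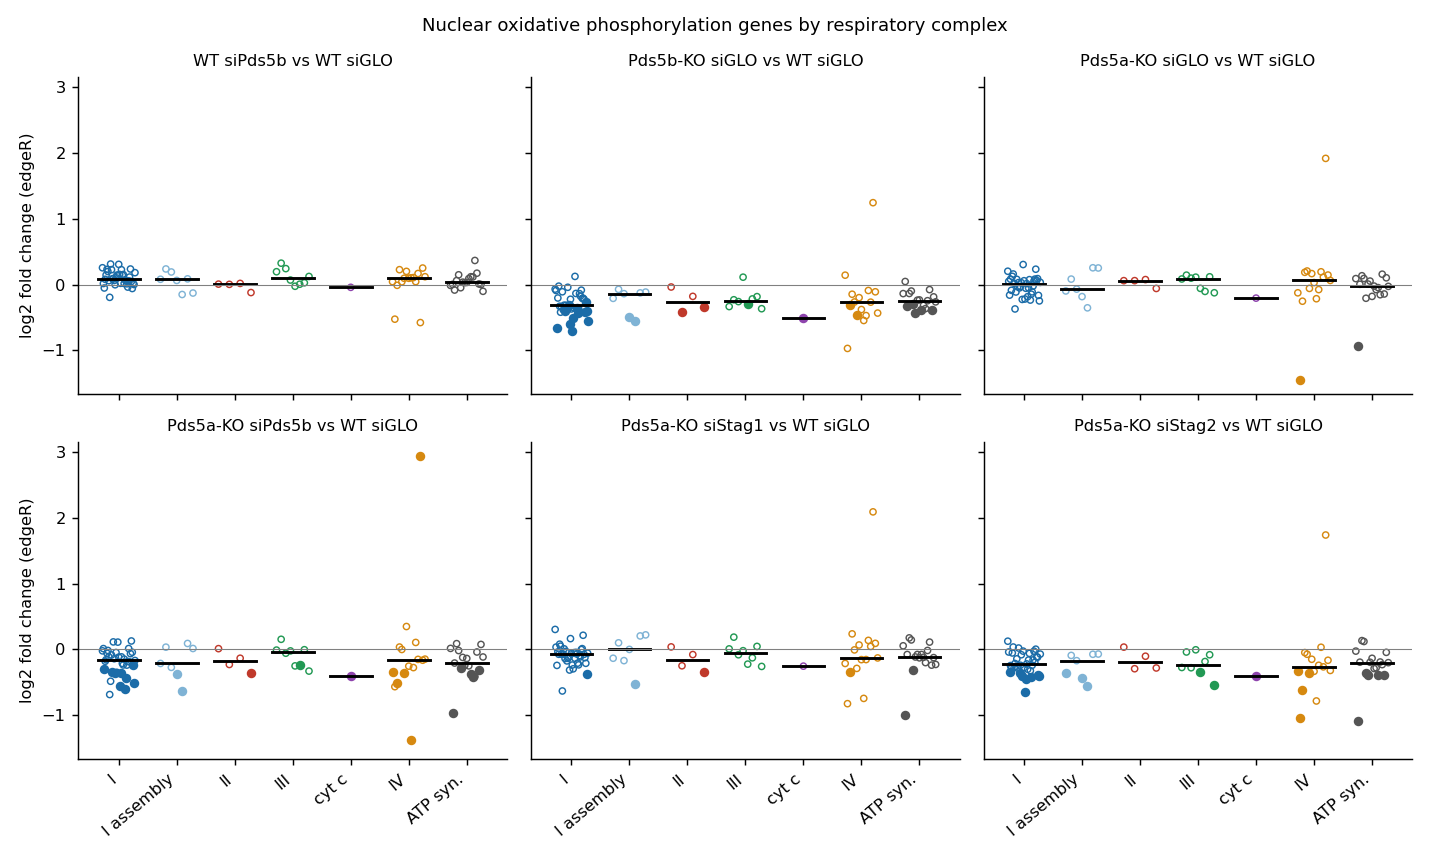
Log2 fold change from edgeR (y axis) of each of the 89 tested OXPHOS genes by respiratory complex (x axis) in 6 comparisons with WT siGLO. Filled points were called at an adjusted p under 0.01, open points were not, and black lines are medians of the group. Most points lie below 0 in Pds5b-KO (26 called), Pds5a-KO siPds5b (24 called) and Pds5a-KO siStag2 cells (23 called), and around 0 in the siGLO-treated Pds5a-KO cells (2 called).

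Among complex I subunits in Pds5b-KO cells, the largest fall was that of Ndufb4, an accessory subunit of the membrane arm. Ndufb4 had 455, 578 and 498 normalized counts in WT siGLO and 288, 268 and 382 in Pds5b-KO, a log2 fold change of -0.70 (SE 0.15, edgeR adjusted p = 0.00132). Ndufa11, also of the membrane arm, went from 1700, 1641 and 1555 to 986, 978 and 1130 (-0.66, SE 0.084, edgeR adjusted p = 2.57e-06). The libraries of both genes did not overlap between the conditions. Ndufb11 (-0.60), Ndufv3 (-0.56) and the assembly factor Ndufaf5 (-0.55) complete the 5 largest falls.

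Of the core subunits of complex I, among which are those that carry the flavin and the iron-sulfur clusters, 6 are given here for Pds5b-KO cells. Ndufv2 (-0.41), Ndufs8 (-0.42) and Ndufv1 (-0.27) fell. Ndufs1 (-0.14), Ndufs3 (-0.09) and Ndufs7 (-0.22) were not called, and differences between these subunits were not tested. Ndufv2, of the NADH-binding module, had 3209, 3121 and 2938 normalized counts in WT siGLO and 2318, 2114 and 2546 in Pds5b-KO. All 3 Pds5b-KO libraries were below the lowest WT library.

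In complex II, the flavoprotein Sdha differed little from WT (-0.04, SE 0.060, edgeR adjusted p = 0.66), with 5383, 5685 and 5739 normalized counts in WT siGLO and 5533, 5363 and 5475 in Pds5b-KO. Its partner Sdhb, which holds the iron-sulfur clusters, fell by 0.42 on the log2 scale, from 2674, 2752 and 2544 to 1875, 1905 and 2170. The membrane anchor Sdhd fell by 0.35, and the other anchor, Sdhc (-0.18), was not called. In complex III the core protein Uqcrc2 fell by 0.30. Uqcrc1 was at 0.11 and the Rieske protein Uqcrfs1 at -0.22 with an edgeR adjusted p of 0.013, and neither was called.

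Cycs, which carries electrons between complexes III and IV and also acts in apoptosis, had 2621, 2889 and 2725 normalized counts in WT siGLO and 1557, 1958 and 2236 in Pds5b-KO. The groups did not overlap, and the log2 fold change was -0.52 (SE 0.11, edgeR adjusted p = 0.00141). In complex IV, Cox5a (-0.32) and Cox6b1 (-0.46) fell, while Cox5b (-0.15) and Cox4i1 (0.14) were not called. In the ATP synthase Atp5g1 (-0.43), Atp5o (-0.39), Atp5h (-0.39), Atp5c1 (-0.32) and Atp5f1 (-0.30) fell. The alpha subunit Atp5a1 (-0.14) and the beta subunit Atp5b (0.05) were not called.

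The size of the fall in Pds5b-KO cells differed between libraries. Relative to the WT siGLO mean, the median log2 ratio of the 89 genes was -0.46 in replicate 1, -0.29 in replicate 2 and -0.10 in replicate 3. Without replicate 1 the count of calls went from 26 to 7, and without replicate 3 to 41. The same libraries differed in short transcripts as a class. Tested genes were put in 5 equal classes by the length of the principal transcript. Of the 89 genes, 73 belong to the shortest class (at most 1662 nt), and the other genes of that class had median log2 ratios of -0.29, -0.18 and -0.04 in the 3 libraries, while the longest class had 0.22, 0.17 and 0.07. Of all 2975 genes in the shortest class 12.8% were called lower in Pds5b-KO cells, against 28.8% of its 73 OXPHOS genes and 5 of the 16 OXPHOS genes with longer transcripts. These sets were not matched for count level, so a difference in level is not separated from the difference in shares. When each library was corrected for its trend with length, an alternative added after the data were seen, 10 OXPHOS genes were lower and 2 higher, and the median was -0.11. The part of transcript length or RNA quality in the fall was not tested beyond that alternative. The 10 genes called lower with the correction were Ndufb4, Ndufa11, Ndufb11, Ndufaf5, Cycs, Ndufb5, Ndufaf4, Atp5g1, Sdhb and Ndufv2. Of these, Atp5g1, Ndufaf4, Cycs and Ndufv2 are outside the shortest class, with annotated lengths of 4715, 3632, 3123 and 1697 nt. Their place in this list depends on those annotated lengths.

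**Figure D2:**
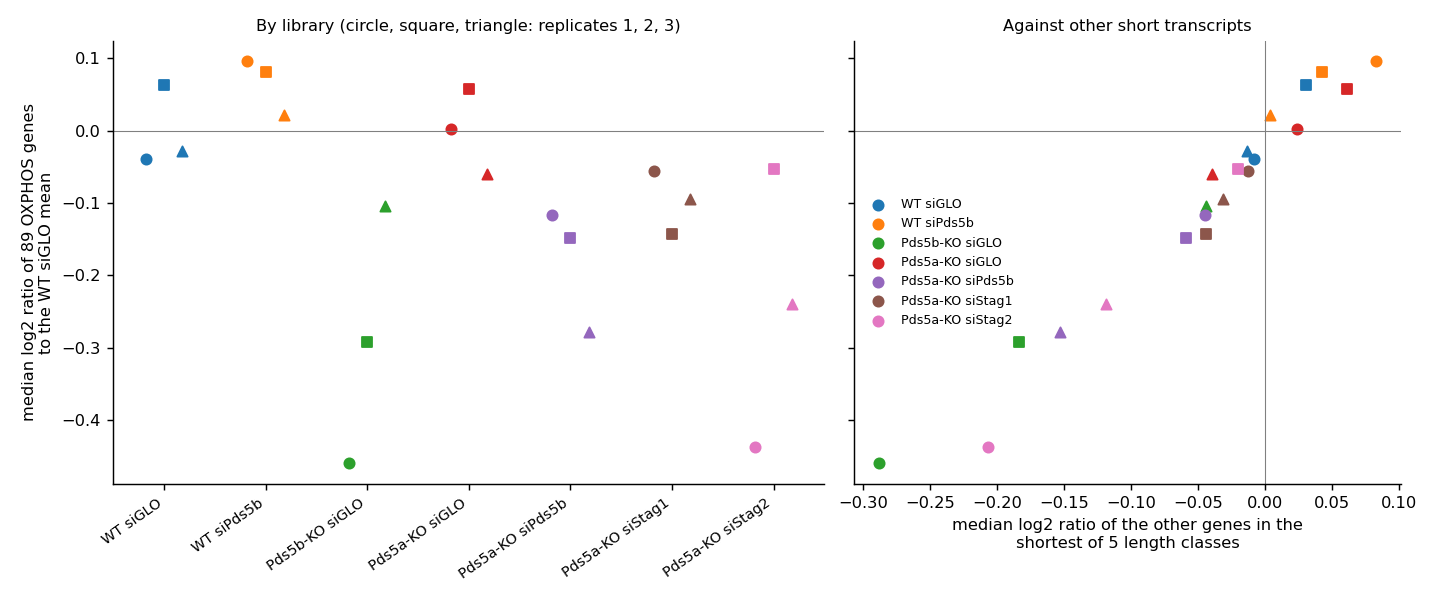
Left, the median log2 ratio of the 89 OXPHOS genes to the WT siGLO mean (y axis) in each library, with replicates 1, 2 and 3 as circle, square and triangle, and right, the same median against that of the other genes of the shortest length class (x axis). Pds5b-KO replicate 1 (-0.46) and siStag2 replicate 1 (-0.44) are lowest on both axes, and points of both measures share a library and its scaling.

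Markers of other cell types were summed in the same libraries. The summed normalized counts of 6 fibroblast markers were 1068 to 1488 in WT siGLO and 305 to 431 in Pds5b-KO, without overlap, and 2 of the 5 tested were called lower. Those of 6 primitive endoderm markers were 851 to 1469 and 1432 to 2632, which overlap, and 0 were called. Those of 5 neuroectoderm markers were 3250 to 3855 and 3404 to 3722, which overlap, while 2 of the 5, Pax6 (2.20) and Sox1 (1.43), were called higher. Their part in the fall was not tested.

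In Pds5a-KO siGLO cells Atp5b, which had the highest level per length of the OXPHOS genes in WT siGLO, fell to about the same level in all 3 libraries. It had 36260, 37880 and 37610 normalized counts in WT siGLO and 19500, 19670 and 19070 in Pds5a-KO siGLO (-0.94, SE 0.060, edgeR adjusted p = 8.1e-11). The mean stayed low in the other Pds5a-KO conditions, at 19050 ± 479 after siPds5b, 18620 ± 80.5 after siStag1 and 17400 ± 949 after siStag2 (SD, n = 3), while it was 38450 ± 1866 in Pds5b-KO and 37290 ± 1374 in WT siPds5b cells. All 12 Pds5a-KO libraries lay below all 9 libraries of the other genotypes. The alpha subunit, Atp5a1, had 27960, 27910 and 27870 in WT siGLO and 30220, 29880 and 29040 in Pds5a-KO siGLO (0.09, not called).

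Atp5b lies on chromosome 10 of mm10 from 128083273 to 128090391 on the plus strand. The genes on either side fell with it in Pds5a-KO siGLO cells, Ptges3 by 0.91 (edgeR adjusted p = 2.5e-10) and Baz2a by 0.71 (edgeR adjusted p = 3.07e-06) on the log2 scale. Beyond them, Naca (0.00) and Rbms2 (0.21) were not called. Ptges3, Atp5b and Baz2a were lower than WT by similar amounts in the 3 siRNA-treated Pds5a-KO conditions and were not called in Pds5b-KO cells. All 4 conditions share 1 clone, so these values do not separate the clone from the deletion of Pds5a.

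**Figure D3:**
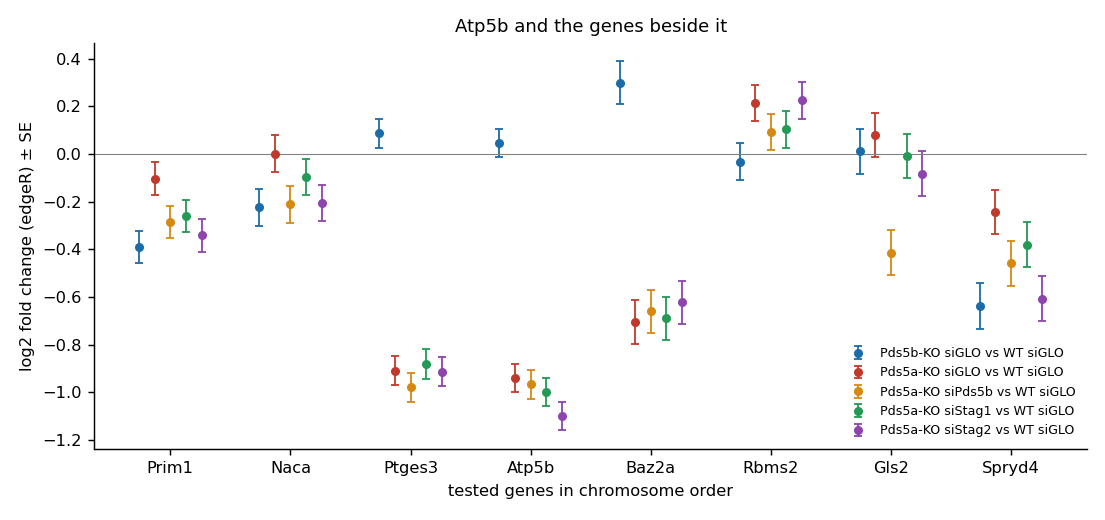
Log2 fold change against WT siGLO with its SE (y axis) of Atp5b and the tested genes beside it in chromosome order (x axis, not to scale) in 5 conditions. In the 4 Pds5a-KO conditions Ptges3, Atp5b and Baz2a lie below -0.6, while the same 3 genes lie above 0 in Pds5b-KO cells.

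The other gene that fell in Pds5a-KO siGLO cells was Cox4i2, the lung and hypoxia form of subunit 4, from 50.7, 39.4 and 49.6 to 11.2, 25.3 and 14.5 normalized counts (-1.45, SE 0.30, edgeR adjusted p = 0.000804). The groups did not overlap, at a low level. Cox5a (-0.25, edgeR adjusted p = 0.014) and Ndufv2 (-0.25, edgeR adjusted p = 0.021) came next by adjusted p and were not called.

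Set against each other, 21 OXPHOS genes were lower and 1 higher in Pds5b-KO than in Pds5a-KO cells, where 9.74% of all tested genes were lower and 9.46% higher. The higher gene was Atp5b (0.99). The largest falls were those of Ndufv3 (-0.59), Ndufa3 (-0.58), Ndufs8 (-0.51), Ndufa11 (-0.50) and Sdhb (-0.48). Ndufs8, a core subunit with iron-sulfur clusters, had 1468, 1462 and 1253 normalized counts in Pds5a-KO siGLO and 962, 916 and 1069 in Pds5b-KO, without overlap. With the correction for length 5 genes were lower and 3 higher. Without replicate 2 of Pds5a-KO siGLO 5 genes were called in all, and without replicate 3 of Pds5b-KO 37 were. Cox4i1, Ndufa13 and Ndufb7 lie on chromosome 8, where the median of 777 tested genes was 0.48 higher on the log2 scale in Pds5b-KO than in Pds5a-KO cells. The median of these 3 OXPHOS genes was 0.27, against -0.29 over all 89. Against WT siGLO, Cox4i1, Ndufa13 and Ndufb7 were at 0.14, -0.03 and 0.12 in Pds5b-KO cells. In Pds5a-KO siGLO cells they were at -0.13, -0.09 and -0.19, and none was called in either comparison. The part of chromosome 8 in these values was not tested.

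The next comparisons concern the loss of both PDS5 proteins. Against WT siGLO, 1 OXPHOS gene rose and 23 fell in Pds5a-KO siPds5b cells, where 17.4% of all tested genes rose and 14.6% fell, and the median change was -0.17. The falls were 9 of 37 complex I subunits, 2 of 7 assembly factors, 1 of 4 complex II subunits, 1 of 8 complex III subunits, Cycs, 4 of 15 complex IV subunits and 5 of 17 ATP synthase genes. Without replicate 3 of the siPds5b libraries the count of calls went from 24 to 8. The library medians were -0.12, -0.15 and -0.28, and those of the other short transcripts -0.05, -0.06 and -0.15. The neuroectoderm sum was below all WT siGLO libraries in Pds5a-KO siGLO cells as well (2088 to 2474). After siPds5b it was 1655 to 1900, below both, with 3 of 5 genes called lower and 1 higher than in WT siGLO. The fibroblast sum (442 to 1303, 1 of 5 tested genes lower) and the primitive endoderm sum (992 to 1753, 0 of 6 called) overlapped with WT siGLO. The part of these markers in the result was not tested. With the correction for length 21 genes were lower and 1 higher, and the median was -0.12. Atp5o, Ndufa11 and Ndufv1 were no longer called with it, and Ndufa5 was added.

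The largest fall in Pds5a-KO siPds5b cells was that of Cox7a1, the muscle form of subunit 7a, with 135, 149 and 108 normalized counts in WT siGLO and 49.7, 51.8 and 48.8 after siPds5b (-1.38, SE 0.30, edgeR adjusted p = 0.000659). Atp5b followed (-0.97), then Ndufaf5 (-0.63), Ndufc1 (-0.61) and Ndufb4 (-0.56). Ndufaf5, a complex I assembly factor that hydroxylates Ndufs7, had 369, 372 and 409 normalized counts in WT siGLO and 261, 248 and 232 after siPds5b. Ndufv2 fell by 0.52 (SE 0.080, edgeR adjusted p = 1.39e-05) to 2200, 2234 and 2032 normalized counts. Cox7b2, the testis form of Cox7b, was the gene called higher, with 7.73, 0 and 1.65 normalized counts in WT siGLO and 31.1, 21.8 and 25.9 after siPds5b. It passed the low-count filter through conditions in which it is high, and its WT counts are near 0, so these values are a description and its call supports nothing.

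Against Pds5a-KO siGLO cells, which share the clone, siPds5b called 0 OXPHOS genes where 7.59% of all tested genes were called. The median change was -0.18, with 82 of 89 values below 0, and 33 genes (37.1%) had an unadjusted p under 0.05, against 29.3% of all tested genes. The median over all genes of the shortest length class was -0.10 and that of the longest class 0.10. Same-numbered libraries deviated together in this comparison, and when the model took the replicate number as a block 2 genes were called lower, Cox7a1 (-1.15, edgeR adjusted p = 0.00831) and Ndufab1 (-0.33, edgeR adjusted p = 0.00987), the mitochondrial acyl carrier protein. DESeq2 called 1, Cox7a1. The test of whether siPds5b acted differently in Pds5a-KO and WT cells called 0 OXPHOS genes, where it called 1.48% of all tested genes, and DESeq2 called 0. The median of that difference was -0.25, and 29 genes (32.6%) had an unadjusted p under 0.05, against 17.3% of all tested genes. Over all genes of the shortest length class the median difference was -0.14, and over the longest class 0.115.

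**Figure D4:**
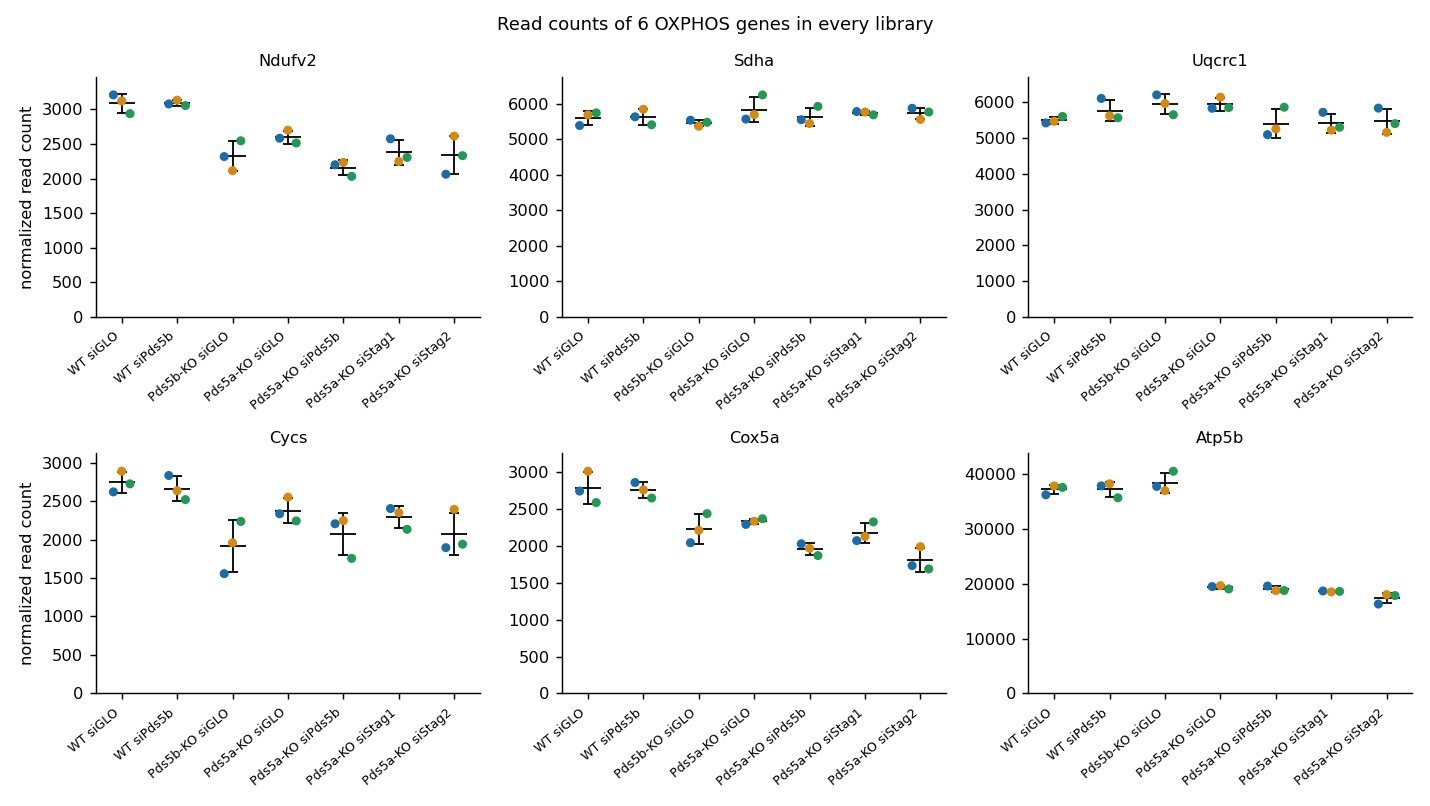
Normalized read counts (y axis) of 6 OXPHOS genes in every library of the 7 conditions (x axis), with blue, orange and green points for replicates 1, 2 and 3 and black bars for the mean and SD of 3 libraries. Atp5b separates all Pds5a-KO conditions from the rest, all WT libraries of Ndufv2 and Cox5a lie above those of the other conditions, and Sdha and Uqcrc1 stay between 5096 and 6245 counts in every library.

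The last comparisons concern the loss of a STAG protein in Pds5a-KO cells. Against WT siGLO, siStag1 gave 0 rises and 6 falls, where 10.6% of all tested genes rose and 9.37% fell, with a median of -0.08. The 6 genes were Atp5b, whose levels are given above, Ndufaf5 (-0.53), Ndufv2 (-0.38), Cox5a (-0.35), Sdhd (-0.35) and Atp5f1 (-0.32), the last a subunit of the peripheral stalk. Leaving out 1 library at a time, the count ran from 3 (without WT siGLO replicate 3, siStag1 replicate 2 or siStag1 replicate 3) to 8. Against WT siGLO, siStag2 gave 0 rises and 23 falls, where 16.2% rose and 13.9% fell, with a median of -0.23. By complex the falls were 8 of 37 complex I subunits, 3 of 7 assembly factors, 0 of 4 complex II subunits, 2 of 8 complex III subunits, Cycs, 4 of 15 complex IV subunits and 5 of 17 ATP synthase genes.

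After siStag2 the largest falls were those of Atp5b (-1.10), Cox4i2 (-1.04), Ndufb4 (-0.65), Cox5a (-0.62) and Ndufaf5 (-0.57). Cox5a, a matrix-side subunit of complex IV, had 2744, 3013 and 2588 normalized counts in WT siGLO, 2292, 2334 and 2369 in Pds5a-KO siGLO and 1733, 1990 and 1688 after siStag2. Its 3 siStag2 libraries were below every library of both siGLO conditions. The library medians of the 89 genes were -0.44, -0.05 and -0.24 after siStag2, and those of the other short transcripts -0.21, -0.02 and -0.12. The neuroectoderm sum was 2284 to 2694 (2 of 5 genes called higher and 2 lower) and the fibroblast sum 581 to 863 (1 of 5 tested genes lower). Both were below all WT siGLO libraries, while the primitive endoderm sum (804 to 867, 0 of 6 called) overlapped with WT. Both overlapped with Pds5a-KO siGLO cells (2088 to 2474 and 333 to 1383), while the primitive endoderm sum was below theirs (921 to 1966). After siStag1 the neuroectoderm and fibroblast sums were also below all WT siGLO libraries (2376 to 3231 and 296 to 920). The part of these markers in the result was not tested. Without siStag2 replicate 1 the count of calls against WT went from 23 to 9, and without replicate 2 to 35. With the correction for length 19 genes were lower and 1 higher, with a median of -0.13.

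Against Pds5a-KO siGLO, siStag1 called 0 OXPHOS genes where 0.0936% of all tested genes were called, and DESeq2 called 0. The median was -0.08, and 7 genes (7.87%) had an unadjusted p under 0.05, against 10.7% of all tested genes. The medians over the shortest and longest length classes of all genes were -0.06 and 0.06. siStag2 called 1, where 2.24% of all tested genes were called. This was Cox5a (-0.37, SE 0.077, edgeR adjusted p = 0.005), and 85 of 89 values were below 0 with a median of -0.20. An unadjusted p under 0.05 was found for 44 OXPHOS genes (49.4%), against 25.3% of all tested genes, and the medians over the shortest and longest length classes of all genes were -0.135 and 0.15. The call was lost with the correction for length, where Cox5a was at -0.20. Same-numbered libraries deviated together here too. With the replicate block 4 genes were called, Cox5a, Atp5l (-0.39), Ndufb5 (-0.39) and Sdhb (-0.36). siStag2 against siStag1 called 0 OXPHOS genes, where 0.394% of all tested genes were called. The median was -0.15, DESeq2 called 1, and 13 genes (14.6%) had an unadjusted p under 0.05, against 19.9% of all tested genes. The medians over the shortest and longest length classes were -0.07 and 0.08.

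Over the 5 knockout conditions compared with WT siGLO, 52 of the 89 genes were called lower in none, 13 in 1, 10 in 2, 9 in 3, 5 in 4 and 0 in 5. As shares these were 58.4%, 14.6%, 11.2%, 10.1%, 5.62% and 0%, against 76.4%, 9.59%, 4.76%, 3.58%, 3.43% and 2.21% of all 14963 tested genes. The 5 genes called lower in 4 conditions were Atp5b, Atp5f1, Cox5a, Ndufaf5 and Ndufv2. These comparisons share the WT siGLO libraries, and 4 of them share the Pds5a-KO clone. Main subunits called in none of the 5 included Ndufs1, Ndufs3, Ndufs7, Sdha, Sdhc, Uqcrc1, Cox5b and Atp5a1. Sdha, of complex II, had log2 fold changes between -0.04 and 0.06 over these conditions, and Uqcrc1, of complex III, between -0.03 and 0.11.

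Lists outside the symbol rule gave the following. Of 76 genes of mitochondrial ribosomal proteins, which make the mitochondrially encoded subunits, 14 fell and 0 rose in Pds5b-KO cells (median -0.21), 20 fell and 3 rose in Pds5a-KO siPds5b cells (-0.20), 27 fell and 1 rose after siStag2 (-0.24), 4 fell and 2 rose after siStag1 (-0.06), and 2 fell and 1 rose in Pds5a-KO siGLO cells (-0.02), all against WT siGLO. Of 31 tested assembly factors of the respiratory chain, 4 fell in Pds5a-KO siGLO, 2 in Pds5b-KO, 9 in Pds5a-KO siPds5b, 4 after siStag1 and 10 after siStag2. There was no rise, and the medians lay between -0.23 and -0.16. The shares of all tested genes that fell in these comparisons, in the same order, were 8.12%, 8.57%, 14.6%, 9.37% and 13.9%. The 2 of 31 in Pds5b-KO are no larger a share than that. Of 16 citric acid cycle genes 0 were called in Pds5a-KO siGLO and siStag1 cells, and 1 fell in Pds5b-KO. In Pds5a-KO siPds5b cells 3 fell and 1 rose, and 3 fell after siStag2. Cyc1, the cytochrome of complex III, was called in no comparison.

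Among 15 tested regulators of mitochondrial biogenesis, 2 rose and 2 fell in Pds5b-KO cells, where 9.64% of all tested genes rose and 8.57% fell. Counts of 2 among 15 genes are near these shares. The coactivator genes Ppargc1b (0.54) and Pprc1 (0.35) were the rises, and Tfb1m and Tefm, which act in mitochondrial RNA metabolism, were the falls. After siPds5b in Pds5a-KO cells 4 fell (Gabpa, Tfam, Tfb1m and Tefm) and 0 rose, where 14.6% of all tested genes fell and 17.4% rose. After siStag1 2 fell (Gabpa and Tfb1m), where 9.37% of all tested genes fell. After siStag2 5 fell (Gabpa, Tfam, Tfb1m, Tfb2m and Tefm) and 1 rose (Polg), where 13.9% fell and 16.2% rose. In Pds5a-KO siGLO cells 0 were called, where 8.12% fell and 9.63% rose. Gabpa, an ETS factor that binds promoters of many OXPHOS genes, fell by 0.38 on the log2 scale both after siPds5b and after siStag2 in Pds5a-KO cells (edgeR adjusted p = 3.31e-05 and 4.02e-05). Tfam, which packages mitochondrial DNA, fell by 0.33 and 0.27 in the same conditions. Nrf1 was not called in any of these comparisons, with log2 fold changes between -0.01 and 0.11.

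Against WT siGLO, 4 of the 12 genes with the NRF1 letters fell in Pds5b-KO cells and 5 in Pds5a-KO siPds5b cells. Against the same libraries 4 fell after siStag2, 1 after siStag1 and 0 in Pds5a-KO siGLO. Cycs and Ndufaf4, whose promoter letters are printed above, were among them in Pds5b-KO, siPds5b and siStag2 cells. Among all 89 OXPHOS genes the counts in the same order were 26, 23, 23, 6 and 2, and the difference between genes with and without the letters was not tested. Of all tested genes 8.57%, 14.6%, 13.9%, 9.37% and 8.12% fell in these comparisons, in that order. Ndufaf4 had 818, 756 and 810 normalized counts in WT siGLO, 577, 544 and 564 in Pds5b-KO, 685, 596 and 559 after siPds5b, and 538, 639 and 590 after siStag2 in Pds5a-KO cells. All 9 of those libraries were below the lowest WT library. After siStag1 it had 838, 790 and 753, and those values overlapped with WT.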

How the data were processed

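Poly-A RNA was sequenced from 21 libraries. Per the labels, the authors aligned reads to mm10 with STAR and used DESeq2, and the deposited files hold raw read counts per gene; the counting tool, annotation and use of strand are not given in the sources used here. Counts were joined by symbol, scaled by TMM and fitted in 1 model of 7 conditions with edgeR 4.0.16 (R 4.3.3, glmQLFit robust, glmQLFTest, filterByExpr). Genes were called at an adjusted p under 0.01 (Benjamini-Hochberg over 14963 genes), and DESeq2 1.42.0 was an alternative. The procedure was tested on simulated data for Pds5b-KO against WT. Without a length trend, 64% of 2-fold and 43% of 1.5-fold changes were called, and 0.926% of calls were false. With a simulated length trend of fixed size and no correction, the 89 unchanged OXPHOS genes had a median of -0.127 and 0 were called. That trend was the same in every simulated Pds5b-KO library, while in the data the length classes differed between libraries. The simulation therefore cannot show how many calls the trend in the data would give. With the correction that median was 0.00353. Normalized counts refer to a library of 19816922 counts. Transcript lengths came from the GENCODE annotation of mm10 and promoters from RefSeq.

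The OXPHOS genes, gene lists and tests were chosen with earlier results of these data known. Named genes were the 5 largest called falls and rises per comparison without overlap, a list of core and other main subunits (1 is not reported here), isoform pairs and the extremes of level per length. Other genes named beside them were chosen after their values were seen. Replicate numbers come from the labels. Deviations from the condition means correlated above 0.1 in every same-numbered pair for siPds5b against siGLO in WT cells (0.545, 0.457 and 0.382) and for siPds5b (0.727, 0.37 and 0.606), siStag1 (0.674, 0.202 and 0.57) and siStag2 (0.116, 0.269 and 0.254) against siGLO in Pds5a-KO cells, so these were also fitted with the replicate block.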

Additional observations from a re-analysis of the deposited data

Results flagged for a closer look

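The median log2 change of the OXPHOS genes after siPds5b was of opposite sign in the 2 genotypes. The library medians were 0.0955, 0.081 and 0.0216 in WT cells and -0.088, -0.157 and -0.273 in Pds5a-KO cells, each against its own siGLO mean, and the difference of the means was -0.239. On the same scale the WT siGLO libraries themselves were at -0.039, 0.062 and -0.029, so the WT siPds5b value of 0.0216 lies within their range. Over all genes of the shortest length class the median was 0.04 in WT cells and -0.10 in Pds5a-KO cells, and the median difference was -0.14, against 0.115 over the longest class. The part of transcript length was not tested. This difference of medians was not tested, and the test of the difference gene by gene called 0 of 89 genes (edgeR, adjusted p under 0.01; 29, or 32.6%, at an unadjusted p under 0.05, against 17.3% of all tested genes; DESeq2 0).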

How the results depend on the processing

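Counts of called OXPHOS genes moved by over 1.5 times as follows. At an adjusted p under 0.05 they were 7 (Pds5a-KO against WT), 41 (Pds5b-KO against WT), 20 (siStag1 against WT), 39 (siStag2 against WT), 13 and 11 (siPds5b and siStag2 against Pds5a-KO siGLO), 49 (Pds5b-KO against Pds5a-KO) and 2 (siStag2 against siStag1). With the length correction they were 4, 12, 1 (siPds5b against Pds5a-KO siGLO), 0 (siStag2 against Pds5a-KO siGLO) and 8 (Pds5b-KO against Pds5a-KO). With that correction and the replicate block they were 6, 14, 11 (siStag1 against WT), 2, 0, 11 (Pds5b-KO against Pds5a-KO) and 1 (siStag2 against siStag1). Both were added after the data were seen. Fitting only the conditions compared gave 14 (siStag1 against WT), 1, 0 and 8 (Pds5b-KO against Pds5a-KO). Without the low-count filter siPds5b and siStag2 against Pds5a-KO siGLO gave 1 and 3, with DESeq2 1 and 5, and with the replicate block 2 and 4. siStag2 against siStag1 gave 1 with DESeq2 and 1 with the block. The replicate block left the other counts within 1.5 times, for example 29 for Pds5b-KO against WT and 27 for Pds5b-KO against Pds5a-KO, and 11 of 21 libraries correlated best with their own number. The cause of these differences was not tested.

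Leaving out 1 library at a time gave, against WT, 2 to 3 calls for Pds5a-KO siGLO, 7 to 41 for Pds5b-KO and 8 to 27 for Pds5a-KO siPds5b. It gave 3 to 8 for siStag1 and 9 to 35 for siStag2 against WT. Against Pds5a-KO siGLO it gave 0 to 1 for siPds5b, 0 to 5 for siStag2 and 5 to 37 for Pds5b-KO. Of 479 alternative values of 30 named gene results, 426 were still called in the same direction, 53 were not, and 0 reversed. Among them, the fits without 1 library kept 141 calls and lost 39. The named results include the largest called falls of the same data, so these counts are no independent check of them.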
